A study of Mus musculus with 4 samples.

Results

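Peaks of chromatin accessibility that appeared or disappeared at the ends of protein-coding genes were compared between mouse oligodendrocyte progenitor cells (OPCs) and oligodendrocytes (OLs). Overlapping or touching peaks of 4 libraries were merged into 229743 regions, of which 21975 had their midpoint within 1 kb of either end of a protein-coding gene of the mm10 RefSeq annotation. A gene-end region was called OL-only where both OL libraries and neither OPC library had a peak, and OPC-only where both OPC libraries and neither OL library had one. There were 1104 OL-only and 1419 OPC-only gene-end regions, 2523 in all. They made up 5.02% and 6.46% of the gene-end regions, beside 15.6% and 9.89% of all merged regions. The members were chosen by presence or absence of peaks in the OL and OPC libraries, the contrast itself, so the values below describe the regions and no test was made on them. The regions are not replicates of a condition.

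The libraries were Omni-ATAC-seq, an assay that tags open chromatin with a transposase, made from 50000 cells each at 37 °C for 30 min and read as single ends of 50 bp. A library of OPCs and 1 of OLs came from each of 2 lines of epiblast stem cells, 129O1 and EpiSC5, so n = 2 per cell type. The strains behind the lines, 129SvEv and 129S1/SvImJ, are given without saying which belongs to which, and it is not stated whether OPCs and OLs were made in separate differentiations. OPCs of both lines were grown in 20 ng/mL bFGF and 20 ng/mL PDGFA without SHH, and after 4 passages were sorted on CD140a and NG2 and expanded again. OLs were sorted for the O1 antigen, and the growth protocol speaks of immature oligodendrocyte cultures.

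OPCs are the dividing cells of the lineage, and on differentiation they leave the cell cycle and express the lipids and proteins of myelin. The region around a gene's start is its promoter, where transcription begins, and many promoters of widely expressed genes lie in CpG islands, stretches rich in CG pairs that tend to be open in most cells. Open chromatin at the 3′ end of a gene can mark the end of transcription, an enhancer, or the promoter of a neighbouring or antisense transcript.

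The lists held between 125002 and 152595 peaks per library, with median widths of 190 to 237 bp. Read counts are not part of them, so the depth behind a peak is unknown. A library without a peak had none above the limit set by the peak caller, which does not make the site closed. In what follows, fold is the enrichment over background that the authors' peak caller gave the strongest peak, with the 129O1 value before the EpiSC5 value. It is ranked only within a list, and folds of different lists are set side by side as a description. The markers chosen for each cell type did not all switch at their ends. Of 7 OPC markers, all had a peak within 1 kb of an end in both OPC libraries and 6 also in both OL libraries, the exception being Cspg4, which encodes the NG2 proteoglycan. Of 9 OL markers, 8 had one in both OL libraries and 5 in both OPC libraries. Mbp, the gene for myelin basic protein, had peaks of 6.86 and 6.19 fold at its left end (strand unknown) in OPCs, 7.10 in EpiSC5 OLs and none in 129O1 OLs. Opalin, a gene for a membrane protein of mature oligodendrocytes, had start peaks of 12.9 fold in 129O1 OPCs, 13.9 in EpiSC5 OPCs, 7.17 in 129O1 OLs and 5.82 in EpiSC5 OLs. Mog, a glycoprotein of the outer myelin surface, had start peaks of 11.1 and 12.4 fold in the OL libraries and of 5.47 in the EpiSC5 OPC library, so it was not a member.

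The promoters of 9 genes show what the members look like where the strongest summits of both libraries fell close to a start. They were taken by peak height among the named genes, 4 OL-only and 5 OPC-only. Each line gives the 250 bases upstream of a RefSeq start on GRCm38.p6, the mm10 assembly, 5′ to 3′ on the gene's strand and credited to RefSeq. Capitals mark matches, on either strand, to short motifs that were searched in all promoters. The core letters of sites for SOX factors were taken as AACAAT, and those of the E-box of basic helix-loop-helix factors as CAGCTG. AP-1 sites, bound by Fos and Jun proteins, were taken as TGANTCA, where N is any base. One arm of a site for NFI, a family of glial regulators, was taken as TTGGCA. For TEAD, the partners of the Hippo pathway, the letters were GGAATG, and for the ETS family, common at housekeeping promoters, they were CCGGAAG. The GC box of SP factors was GGGCGG and the TATA box, which places the basal machinery, was TATAAA. For the Wnt effectors TCF and LEF the letters were CTTTGAT, and for an arm of the palindrome of RFX, regulators of genes for cilia, they were GTTGCC. The windows were chr9:37712281-37712530 on the minus strand for Olfr160, chr1:78816661-78816910 on the plus strand for Kcne4, chr7:30914923-30915172 on the minus strand for Mag and chr2:101883028-101883277 on the minus strand for Prr5l. The OL-only promoters were these.
Olfr160: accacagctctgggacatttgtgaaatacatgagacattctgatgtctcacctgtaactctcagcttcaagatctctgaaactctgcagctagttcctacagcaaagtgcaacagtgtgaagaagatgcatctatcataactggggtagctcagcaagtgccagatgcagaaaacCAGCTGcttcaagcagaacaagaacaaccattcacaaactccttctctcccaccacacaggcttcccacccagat
Kcne4: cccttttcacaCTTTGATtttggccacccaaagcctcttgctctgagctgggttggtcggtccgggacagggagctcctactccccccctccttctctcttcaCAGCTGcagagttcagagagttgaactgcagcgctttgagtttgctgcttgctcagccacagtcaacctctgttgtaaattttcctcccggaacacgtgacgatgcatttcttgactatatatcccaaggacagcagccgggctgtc
Mag: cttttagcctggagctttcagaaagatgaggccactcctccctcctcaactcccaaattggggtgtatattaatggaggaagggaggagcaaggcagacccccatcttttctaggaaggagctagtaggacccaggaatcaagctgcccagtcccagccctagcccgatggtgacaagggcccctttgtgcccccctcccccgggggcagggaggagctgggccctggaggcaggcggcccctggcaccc
Prr5l: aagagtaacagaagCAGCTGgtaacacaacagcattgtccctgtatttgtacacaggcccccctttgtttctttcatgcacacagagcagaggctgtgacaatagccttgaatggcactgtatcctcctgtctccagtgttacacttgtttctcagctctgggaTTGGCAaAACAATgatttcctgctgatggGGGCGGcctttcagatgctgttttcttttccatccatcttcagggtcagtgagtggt
The OPC-only windows were chr13:106836303-106836552 on the minus strand for Lrrc70, chrX:106920375-106920624 on the plus strand for Lpar4, chr2:14388148-14388397 on the plus strand for Slc39a12, chr4:156050818-156051067 on the minus strand for Ttll10 and chr9:62857854-62858103 on the plus strand for Calml4. The OPC-only promoters were these.
Lrrc70: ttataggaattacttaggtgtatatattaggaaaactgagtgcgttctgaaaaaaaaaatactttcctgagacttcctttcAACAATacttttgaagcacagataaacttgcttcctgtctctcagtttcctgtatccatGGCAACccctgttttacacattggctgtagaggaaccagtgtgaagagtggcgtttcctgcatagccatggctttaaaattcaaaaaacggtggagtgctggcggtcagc
Lpar4: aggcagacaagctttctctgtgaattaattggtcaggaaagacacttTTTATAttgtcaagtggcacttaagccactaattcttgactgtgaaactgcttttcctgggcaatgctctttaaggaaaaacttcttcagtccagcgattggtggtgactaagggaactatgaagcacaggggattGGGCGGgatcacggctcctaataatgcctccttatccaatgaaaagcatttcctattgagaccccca
Slc39a12: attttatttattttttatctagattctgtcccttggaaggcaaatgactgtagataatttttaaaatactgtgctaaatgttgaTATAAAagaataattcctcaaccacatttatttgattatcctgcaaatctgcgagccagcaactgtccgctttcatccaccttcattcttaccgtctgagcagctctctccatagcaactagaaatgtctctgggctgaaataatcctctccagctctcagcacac
Ttll10: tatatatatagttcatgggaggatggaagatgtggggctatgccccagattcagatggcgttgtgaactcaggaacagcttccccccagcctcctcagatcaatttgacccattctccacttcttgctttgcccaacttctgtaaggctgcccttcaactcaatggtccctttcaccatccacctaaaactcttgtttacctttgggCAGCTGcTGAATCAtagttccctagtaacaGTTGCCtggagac
Calml4: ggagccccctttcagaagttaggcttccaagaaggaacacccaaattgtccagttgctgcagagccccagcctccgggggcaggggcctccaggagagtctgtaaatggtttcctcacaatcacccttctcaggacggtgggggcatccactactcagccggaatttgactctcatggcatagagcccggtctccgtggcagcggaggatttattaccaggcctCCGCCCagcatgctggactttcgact
The Olfr160 promoter, of an olfactory receptor gene, had no CG pair in the 300 bases around its start, and its summits lay 28 and 23 bases upstream. The promoter of Mag, the myelin-associated glycoprotein, had 3 CG pairs and 63.0% G + C in the same window. The 250 bases printed for it held none of the motifs. Its summits lay 1 base downstream of the start in 129O1 OLs and 51 bases upstream in EpiSC5 OLs. The bases printed for Prr5l, a gene for a partner of the mTORC2 kinase complex, held 4 of the motifs, an E-box, an NFI arm, a SOX core and a GC box. In the OPC-only promoter of Slc39a12, which encodes the zinc transporter ZIP12, the summits of both OPC libraries lay 56 bases upstream of the start. In that of Lpar4, a receptor for lysophosphatidic acid, both summits lay 47 bases upstream.

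The sets differed in which end of the gene they occupied. OL-only regions lay mainly at gene 3′ ends and OPC-only regions mainly at gene starts. The strand, which tells start from 3′ end, was known for 17492 of 21887 protein-coding genes. Of 862 OL-only regions with a known strand, 277 lay at a start, 32.1% (95% exact Clopper-Pearson interval 29.0% to 35.4%), and 585 at a 3′ end. Of 1081 OPC-only regions, 776 lay at a start, 71.8% (69.0% to 74.5%), and 305 at a 3′ end. The intervals cover counting error only. Among OPC-only regions without a region found in all 4 libraries within 1 kb, the counts were closer, 310 at starts and 261 at 3′ ends. Among OL-only regions of that kind they were 143 and 505. Among all gene-end regions with a strand, 79.3% lay at starts, and among those with a peak in all 4 libraries 90.7%. At starts there were 2.80 OPC-only regions for each OL-only region. At 3′ ends the balance was the opposite, with 1.92 OL-only regions for each OPC-only region, and away from gene ends it was 1.63. OL-only regions were thus 2.01% of the regions at starts but 16.3% of those at 3′ ends and 16.7% of those away from gene ends. OPC-only regions were 5.62%, 8.48% and 10.2%. The remaining 242 OL-only and 338 OPC-only regions were nearest to a gene of unknown strand, 5.28% and 7.38% of the regions there.

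**Figure D1:**
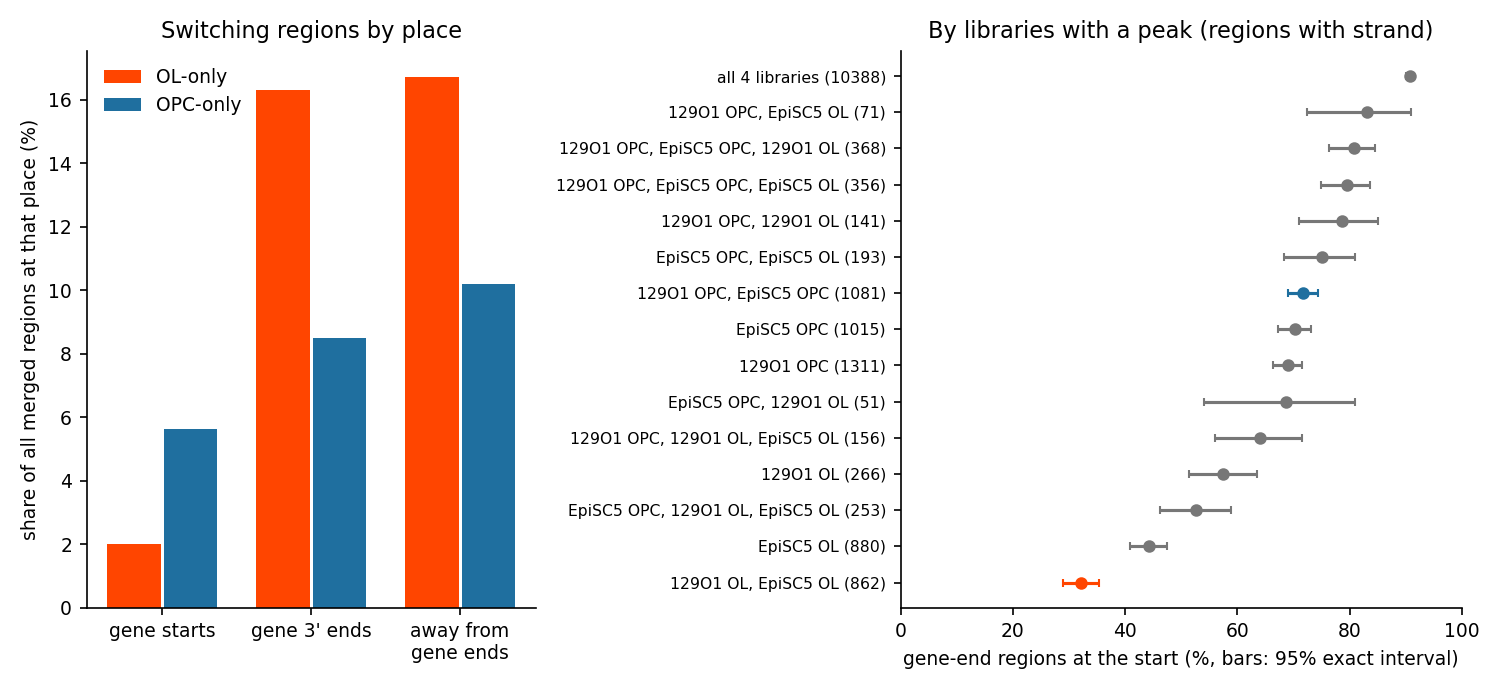
Left, share of all merged regions at gene starts, at gene 3′ ends and away from gene ends that were OL-only (orange) or OPC-only (blue), in percent. Right, share of gene-end regions with a known strand that lay at a start, for each combination of libraries with a peak (number of regions in brackets, bars are 95% exact intervals). The OL-only set has the lowest share, 32.1%, and regions in all 4 libraries the highest, 90.7%.

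The same order was seen in regions with a peak in 1 library alone. Of those with a strand, 57.5% of the 129O1 OL regions and 44.2% of the EpiSC5 OL regions lay at a start, beside 69.0% for 129O1 OPCs and 70.3% for EpiSC5 OPCs. Within each line, whatever the other line showed, 41.8% of 1432 regions of 129O1 OLs without a peak in its OPCs lay at a start, and 71.7% of 2819 in the reverse case. In EpiSC5 the shares were 41.9% of 1969 and 72.4% of 2515. In each line these regions include all members with a strand, 862 OL-only and 1081 OPC-only, so they are not separate from the sets. In the whole peak lists the cell types were closer. Starts took 10.9% (129O1) and 9.84% (EpiSC5) of the OPC peaks, 10.5% and 8.99% of the OL peaks, and 3′ ends took 1.55% to 1.65% in each list. The counts depended on how wide the peaks were taken to be. With each peak cut to 200 bp around its summit, 2320 regions were OL-only and 1694 OPC-only, and 65.7% and 75.2% of them lay at starts. When those of them inside a full-width region found in all 4 libraries were left out, 1099 OL-only and 1386 OPC-only regions remained, and the OL-only start share was 31.3%. That setting was added after the data were seen. By the main rule no member overlaps such a region, so the setting comes close to that rule again and is no separate check. Without the 129O1 OL library the order of the counts turned as well, with 2242 OL-only and 1908 OPC-only regions, and the OL-only start share was 38.8%. Leaving out a library loosens the rule for its cell type. OPC-only regions numbered 2890 without the 129O1 OPC library and 3807 without the EpiSC5 OPC library.

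Around starts the sets also differed in position. Midpoints of OPC-only regions lay downstream of the start in 62.4% of 776 cases and those of OL-only regions in 42.6% of 277, beside 77.1% of 9422 all-library regions. The OPC-only regions had a cluster within 200 bp of the start (212 regions, 27.3%) and another between 600 and 1000 bp downstream, whose 2 bins of 200 bp held 16.2% and 16.4%. The OL-only regions at starts were fewest between 200 and 400 bp downstream (3.97%). They held 13.4% in the 200 bp upstream of the start, 13.0% and 17.0% in the bins from 1000 to 600 bp upstream, and 11.9% and 12.6% in those from 600 to 1000 bp downstream. At 3′ ends the OL-only bins ranged from 6.67% to 12.5%, and the highest were those on either side of the end, with 11.6% and 12.5%. Within 200 bp of the 3′ end lay 24.1% of the OL-only, 15.4% of the OPC-only and 18.9% of the all-library regions there.

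**Figure D2:**
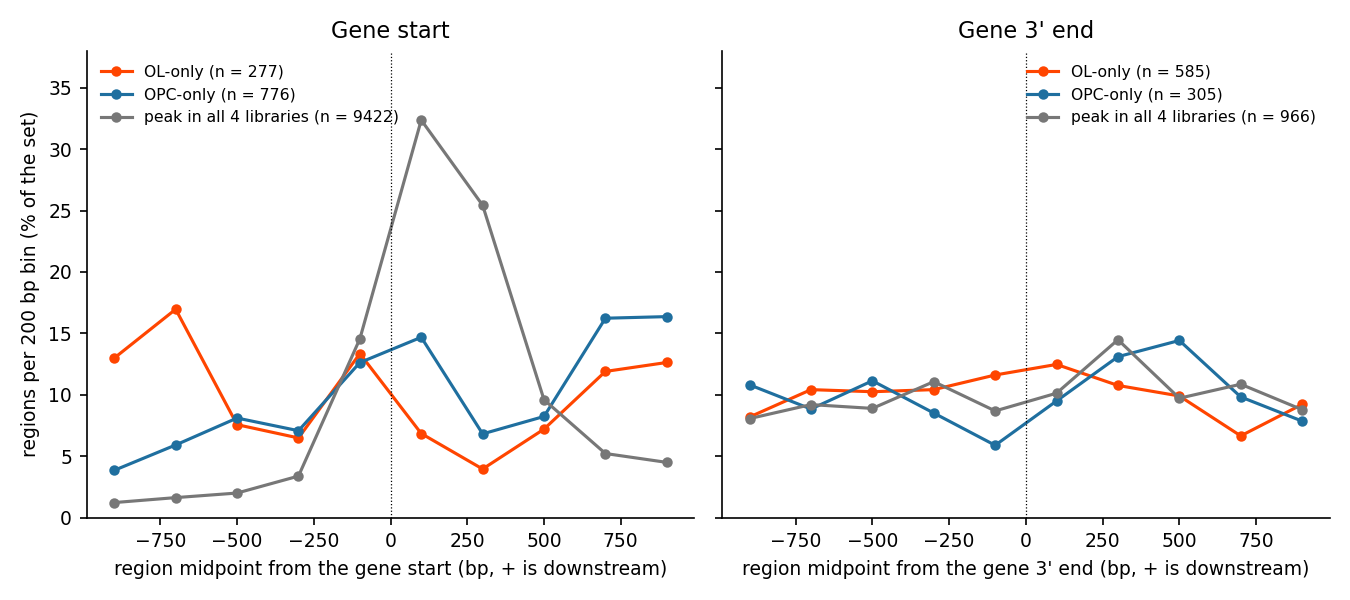
Share of each set per 200 bp bin (percent) against the distance of the region's midpoint from the gene start (left) or gene 3′ end (right), positive downstream, for OL-only, OPC-only and all-library regions. All-library regions peak in the first 200 bp after the start (32.4%), OPC-only regions show one peak at the start and one beyond 600 bp downstream, and OL-only regions at 3′ ends are highest in the bins beside the end (11.6% and 12.5%).

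Many regions at starts lay beside a region found in all 4 libraries, and these differed in height and place from those that stood alone. Of the OPC-only regions at starts, 466 of 776 (60.1%) had an all-library region within 1 kb, and of the OL-only regions at starts 134 of 277 (48.4%). At 3′ ends the shares were 14.4% and 13.7%. The 310 OPC-only regions at starts with no such neighbour lay close to the start, at a median of 154.5 bp, with 56.8% within 200 bp and median folds of 6.32 and 6.35. Those with a neighbour lay at a median of 661 bp, with 7.73% within 200 bp and median folds of 3.95 and 3.6. The 143 lone OL-only regions at starts lay at a median of 555 bp, 28.7% within 200 bp, with median folds of 6.14 and 7.26, and the 134 with a neighbour had median folds of 3.88 and 4.37. An example of the second kind was Rlbp1, the gene for a retinaldehyde-binding protein found in OPCs, whose OPC-only region (folds 4.02 and 3.50) lay 77 bp from an all-library region and 426.5 bp inside the gene. The part that the width of the neighbouring peaks takes in these calls was not tested beyond the cut to 200 bp given above.

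The members' peaks ranked near or below the middle of their lists by height. Median folds of the OL-only regions were 5.79 in 129O1 OLs and 6.88 in EpiSC5 OLs, at the 36.2 and 50.4 percentiles of those lists. Median folds of the OPC-only regions were 5.11 and 4.78, at the 23.0 and 18.8 percentiles of the OPC lists. In both sets the regions at 3′ ends stood higher than those at starts. OL-only regions had median folds of 6.07 and 7.26 at 3′ ends and 4.99 and 5.84 at starts, and OPC-only regions 6.17 and 5.87 at 3′ ends and 4.67 and 4.40 at starts. Among regions with no all-library region within 1 kb the gap was smaller. Lone OL-only regions had 6.27 and 7.86 at 3′ ends and 6.14 and 7.26 at starts. Lone OPC-only regions had 6.47 and 6.27 at 3′ ends and 6.32 and 6.35 at starts, so in EpiSC5 the order turned. The folds of a region in the 2 lines were within 2-fold of each other for 98.1% of OL-only and 97.2% of OPC-only regions. The rule itself asks for a peak in both lines, and the share over other regions was not counted. These shares are therefore no measure of how well the lines agree. Above the list median in both lines were 344 OL-only (31.2%) and 210 OPC-only regions (14.8%), and in the top decile of both lists 39 and 8. Widths were alike, with medians of 223 and 224 bp, beside 910 bp for all-library regions at gene ends.

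**Figure D3:**
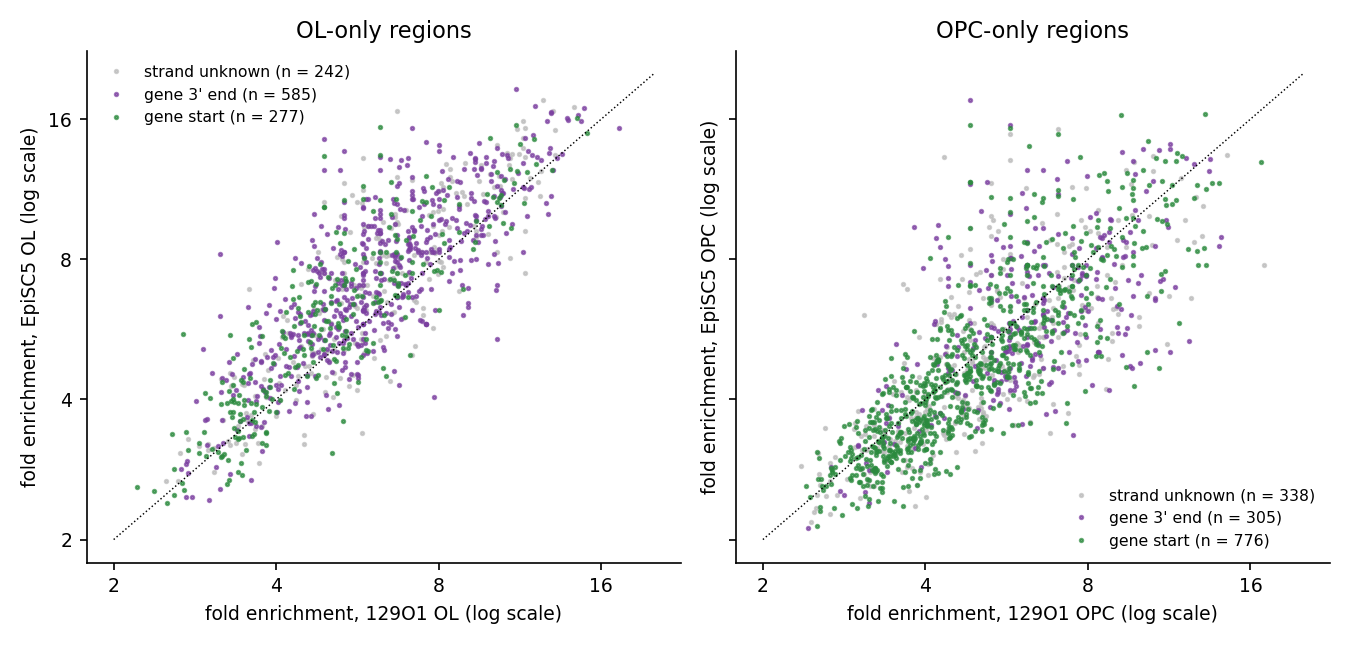
Fold enrichment of the strongest peak of each region in the 129O1 library (x) and the EpiSC5 library (y), both on log scales, for 1104 OL-only regions (left) and 1419 OPC-only regions (right), coloured by gene end. The dotted line marks equal folds. OPC-only regions at starts crowd the low corner, with median folds of 4.67 and 4.40.

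The 12 strongest OL-only regions had folds of 12.9 to 17.3 in 129O1 OLs and 15.0 to 17.0 in EpiSC5 OLs, and 7 of them lay at 3′ ends. Trpc1, which encodes a cation channel, had its region 497 bp from the 3′ end, inside the gene (chr9:95705361-95705777, folds 14.9 and 16.9). Ptprr, a receptor-type tyrosine phosphatase, had one 863.5 bp from its 3′ end (folds 14.7 and 15.9). Col10a1, a collagen best known from hypertrophic cartilage, had one 63 bp from its 3′ end (chr10:34396746-34397298, folds 14.5 and 16.4). Snx14, a sorting nexin, Myh1, a muscle myosin heavy chain, Lix1 and the predicted gene Gm50595 made up the other 3′ ends. Only 2 were at starts, both of olfactory receptor genes. The region of Olfr160 lay 12 bp from the start (folds 15.1 and 15.0) and that of Olfr95 was 792 bp upstream (folds 14.4 and 16.1). Tespa1, a gene of T-cell development, Disp2 and Gm7244 had regions at an end of unknown strand. None of these 12 regions had an all-library region within 1 kb, and the nearest peak of an OPC library was at least 3252 bp away.

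The 12 strongest OPC-only regions had folds of 11.7 to 16.7 and 11.7 to 16.4, and 6 lay at starts. The region of Lrrc70, a leucine-rich repeat gene, lay 49.5 bp from the start (chr13:106836209-106836494, folds 13.2 and 16.4). That of Clec2h, a C-type lectin, lay 17 bp from the start (folds 16.7 and 12.9). Slc39a12 (chr2:14388232-14388666, folds 11.7 and 13.6), Lpar4 (folds 11.9 and 13.3), Ttll10, a tubulin-modifying ligase (folds 11.7 and 13.0), and Calml4, a calmodulin-like gene (folds 14.0 and 11.7), were the other starts. At 3′ ends stood Agbl4, a carboxypeptidase that trims glutamates from tubulin (folds 12.6 and 12.8), Ptpro, a receptor-type tyrosine phosphatase (13.4 and 12.4), Aknad1 and ccdc198. The chemokine gene Ccl7 had a region 48 bp from an end of unknown strand (folds 14.5 and 13.4), and Tmem265 one 382 bp from such an end. All 12 were more than 1 kb from any all-library region, while the Aknad1 region had a peak of an OL library 332 bp away.

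The ends of genes of myelin and mature oligodendrocytes held more OL-only than OPC-only regions. Of 40 listed genes, 10 (25%) had an OL-only and 2 (5.0%) an OPC-only region, beside 5.15% and 6.58% of all 21887 protein-coding genes. This is the contrast by which the regions were chosen, and the lists were drawn up with results of these data known, so the counts are a description only. Klk6, a serine protease made by oligodendrocytes, had an OL-only region 114 bp upstream of its start (chr7:43824130-43824518, folds 10.4 and 10.8) and its nearest all-library region 34250 bp away. Mag had one 15 bp from its start (chr7:30914735-30915079, folds 8.88 and 6.92). Hapln2, a link protein of the perinodal matrix, had an OL-only region at each end, 101 bp upstream of the start (folds 3.43 and 3.72) and 477.5 bp past the 3′ end (folds 4.03 and 3.94). Aspa, the enzyme that splits N-acetylaspartate, had one 731.5 bp upstream of its start (folds 5.56 and 8.43). Further members were Prr5l at its start (5.58 and 6.88), Tspan2, a tetraspanin of myelin, at its 3′ end (8.88 and 6.08), and Anln and Trim59 at their 3′ ends. The region of Fa2h, which hydroxylates the fatty acids of myelin lipids, lay at an end of unknown strand, had low folds (3.07 and 2.79) and was 67 bp from an all-library region. The 2 OPC-only members of this list were Il33, a nuclear cytokine, 60.5 bp from its start (folds 10.1 and 8.47), and Adamts4, a matrix protease (5.58 and 4.10).

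Genes listed for OPC identity showed the opposite balance, with 9 of 36 (25%) having an OPC-only and 3 (8.33%) an OL-only region. Of all protein-coding genes, 6.58% and 5.15% had one. Pdgfra, the receptor through which PDGFA drives OPC division, had an OPC-only region 386 bp past its 3′ end (chr5:75198491-75198693, folds 9.25 and 4.99), and 74 bp from an all-library region. At the annotated Pdgfra start a peak was listed only in EpiSC5 OPCs (fold 3.27). Tnr, the matrix protein tenascin-R, and Neu4, a sialidase, had OPC-only regions past their 3′ ends (folds 6.17 and 7.0 for Tnr, 6.17 and 5.44 for Neu4). Gpr17, a receptor of late OPCs, had one 789 bp inside the gene (folds 3.69 and 6.90), and Ccnd1, a cyclin of the G1 phase, one 232.5 bp from an end (5.67 and 4.01). Lrrtm3, Rlbp1, Cacng4 and Hes1 completed the 9, with folds of 2.50 to 4.75 in both lines. The 3 with an OL-only region were Sema5a, an axon guidance gene (6.28 and 8.75), and Vcan, the proteoglycan versican (5.09 and 8.44), both inside their 3′ ends, and Fabp7, a fatty acid-binding protein (3.18 and 3.02), near its start.

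**Figure D4:**
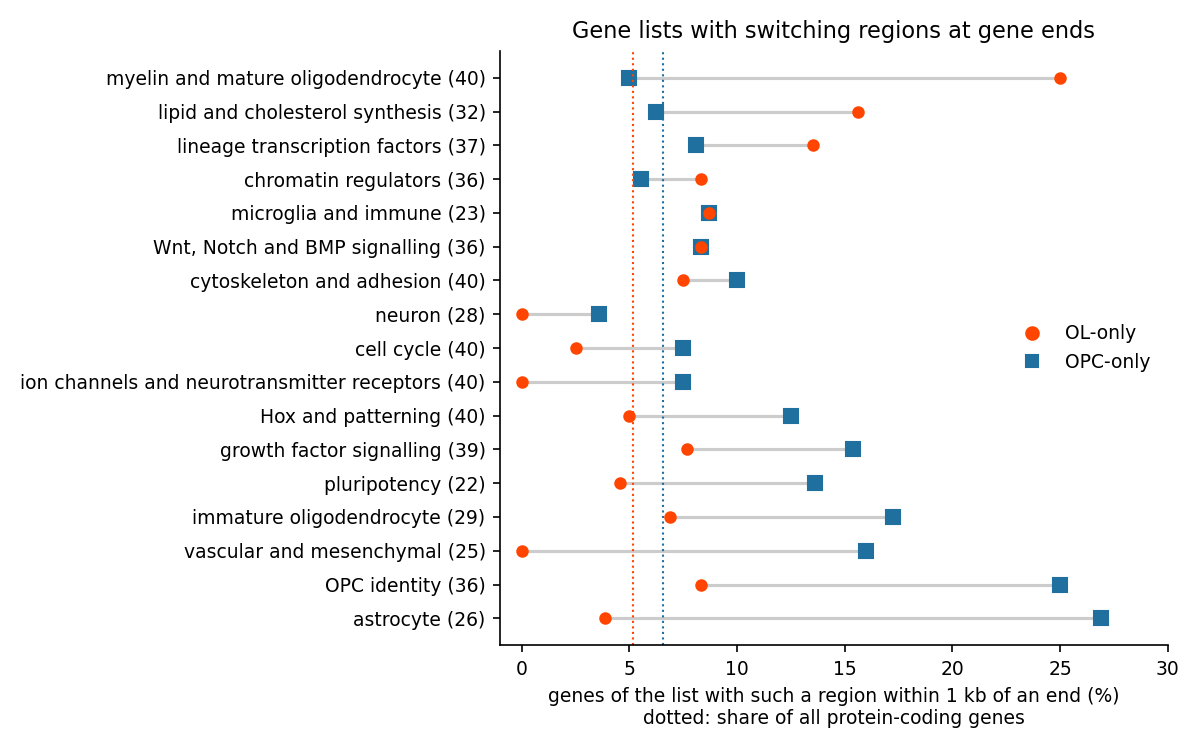
Percent of the genes of each list (number of genes in brackets) with an OL-only region (circles) or an OPC-only region (squares) within 1 kb of an end. Dotted lines are the shares of all protein-coding genes, 5.15% and 6.58%. The myelin list has the highest OL-only share (25%), and the astrocyte (26.9%) and OPC identity (25%) lists the highest OPC-only shares.

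Immature oligodendrocyte genes had 5 OPC-only and 2 OL-only members of 29 (17.2% and 6.90%), beside 6.58% and 5.15% of all protein-coding genes. Enpp6, a phosphodiesterase used as a marker of newly forming oligodendrocytes, had an OL-only region 596.5 bp upstream of its start (chr8:46938488-46938713, folds 6.51 and 10.0), and Cnksr3, a scaffold gene, the strongest OPC-only region (10.1 and 13.8), past its 3′ end. Among 37 transcription factors of the lineage, 5 had an OL-only and 3 an OPC-only region (13.5% and 8.11%). St18, a zinc finger relative of Myt1, had an OL-only region 16 bp from an end (chr1:6487042-6487388, folds 6.47 and 7.23). Those of Klf6, Sox2 and Thra were weaker, at 2.58 to 3.46 fold in 129O1 and 2.68 to 3.06 in EpiSC5, and lay 151 to 636 bp from an all-library region. Tcf7l2, a Wnt effector active as oligodendrocytes begin to mature, had an OPC-only region 758 bp inside its start with folds of 2.69 and 2.79. Lipid and cholesterol synthesis genes had 5 OL-only members of 32 (15.6%), among them Scd1, a fatty acid desaturase (4.12 and 6.05), and 2 OPC-only members, Fdps and Elovl5. The OL-only region of Cers2, a ceramide synthase of myelin lipid synthesis, lay at its 3′ end (chr3:95322596-95322868, folds 5.35 and 9.79), which is shared with the 3′ end of Setdb1, a histone methyltransferase, so 1 region counts for both genes.

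Of 40 cell cycle genes, 3 (7.5%) had an OPC-only region (Ccnd1, Mcm3 and Mcm5) and 1 (2.5%) an OL-only region (Foxm1), beside 6.58% and 5.15% of all genes. Of 39 growth factor genes, 6 (15.4%) had an OPC-only region, among them Igfbp5 (8.29 and 7.26), Pdgfb (7.70 and 4.75) and Erbb3 (6.90 and 3.92), and 3 an OL-only region. The list of Wnt, Notch and BMP signalling had 3 of 36 (8.33%) in each direction. Its OL-only regions, of the Notch ligand gene Dll1 (7.42 and 9.42), the Wnt effector gene Tcf7 (6.77 and 12.6) and the Wnt inhibitor gene Nkd1 (5.62 and 5.89), all lay at 3′ ends. The OPC-only regions of Id1, Hes1 and Tgfbr1 had folds below 4 in both lines. Chromatin regulators had 3 OL-only and 2 OPC-only members of 36, cytoskeleton and adhesion genes 3 and 4 of 40, and Hox and patterning genes 2 and 5 of 40. Ion channel and neurotransmitter receptor genes had 3 OPC-only members of 40 (7.5%) and no OL-only member. Among these was Cacna2d1, a calcium channel subunit, with folds of 9.25 and 13.6 at its 3′ end.

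Genes listed for other cell types were among the members of both sets. Over all protein-coding genes, 6.58% had an OPC-only and 5.15% an OL-only region at an end. Of 26 astrocyte genes, 7 (26.9%) had an OPC-only region and 1 (3.85%) an OL-only region. Slc39a12 was the strongest. Aldh1l1, a folate enzyme used as an astrocyte marker, had a region 9.5 bp from its start (chr6:90550690-90550865, folds 6.85 and 7.02), and Itih3 one 58 bp from its start (6.90 and 4.66). Gja1, the main astrocyte connexin, had a region 54.5 bp from its start (5.20 and 5.52), 278 bp from an all-library region. Gfap, the intermediate filament of astrocytes, and S100b had OPC-only regions inside their 3′ ends (4.26 and 8.49, and 6.68 and 5.47). Over the whole astrocyte list, 20 genes had a peak at an end in 129O1 OPCs, 21 in EpiSC5 OPCs, 15 in 129O1 OLs and 18 in EpiSC5 OLs. No peak was listed in any library at the ends of 5 of the 26, Aqp4 among them. Of 25 vascular and mesenchymal genes, 4 had an OPC-only region (Acta2, Col1a1, Myh11 and Twist1) and none an OL-only region, and a peak at an end was listed for 17 and 13 of the 25 in OPCs and for 11 and 9 in OLs. Of the endothelial genes in that list, Pecam1, Cldn5 and Tek had none in any library, while the start of Kdr had one in all 4 libraries (9.62 and 8.20 in OPCs, 9.10 and 5.73 in OLs) and that of Flt1 in 3. Of 28 neuron genes 1 (3.57%) had an OPC-only region, Eomes, below the share of all genes. Of 22 pluripotency genes 3 (13.6%) had an OPC-only region (Eomes, Klf4 and T) and 1 (4.55%) an OL-only region (Sox2). Of 23 microglia and immune genes there were 2 (8.70%) in each direction. Of those 23, 14 had no peak at an end in any library, among them Aif1, Cx3cr1 and Csf1r. The share of all genes with a peak at an end was not counted, so the counts of listed genes with a peak have no background. Whether other cells in the cultures contribute to these counts was not tested.

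Gene families were compared by symbol, beside 6.58% OPC-only and 5.15% OL-only among all protein-coding genes. Potassium channel genes had 15 OPC-only members of 94 (16%), 11 of them at starts, and 4 OL-only members (4.26%). Kcnmb1, a subunit of calcium-activated potassium channels, had its region 202.5 bp from the start (9.15 and 10.3), and Kcnip4, a channel-interacting protein gene, 339.5 bp from it (8.37 and 8.48). Kcnh7 (6.84 and 7.39) and Kcns1 (8.41 and 5.91), channel subunit genes, had regions 37 and 71 bp from their starts, while those of Kcnh5 and Kcnk12 (folds of 3.0 to 4.25) lay 55 and 88 bp from an all-library region. Solute carriers had 32 OPC-only and 21 OL-only members of 373 (8.58% and 5.63%), with 19 of the OPC-only but 7 of the OL-only genes at starts and 9 and 12 at 3′ ends. Among them Slc4a10, a bicarbonate transporter, had an OPC-only region 111.5 bp from its start (10.7 and 13.2), and Slc35d1, a nucleotide sugar transporter, an OL-only region 199.5 bp upstream of its start (10.1 and 10.9). Zfp zinc finger genes had 21 and 14 members of 397 (5.29% and 3.53%), with 16 of the OPC-only genes at starts and 1 at a 3′ end, against 5 and 7 of the OL-only genes. Protocadherins had 6 OPC-only and 1 OL-only members of 69 (8.70% and 1.45%), and collagens 7 and 4 of 44 (15.9% and 9.09%). Olfactory receptor genes had few of either kind, 10 OL-only (0.901%) and 6 OPC-only (0.541%) of 1110. Cytosolic ribosomal protein genes were near the share of all genes for OL-only regions, with 4 of 77 (5.20%), and had 1 OPC-only member (1.30%). The OL-only regions of Rpl11, Rpl13 and Rpl6 had folds of 3.28 to 3.93 and an all-library region 69 to 160 bp away.

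A small number of genes carried regions of both kinds. Of 1128 genes with an OL-only region and 1440 with an OPC-only region at an end, 73 had both, 6.47% of the first and 5.07% of the second. Over all 21887 protein-coding genes, 6.58% had an OPC-only and 5.15% an OL-only region at an end. The overlap was thus near the share over all genes. In 21 of the 73 both regions lay at the same end, and in 52 at opposite ends. The strand was known for 39 of these 52, and in 33 of them the OPC-only region was at the start and the OL-only region at the 3′ end, against 6 with the reverse. The whole sets leaned the same way, with 776 OPC-only regions at starts and 305 at 3′ ends, and 277 and 585 OL-only regions. The split is therefore not a separate result about these genes. Slc1a3, a glutamate transporter of glia, was one of the 33, with an OPC-only region 3.5 bp from its start (4.39 and 4.39) and an OL-only region 434 bp inside its 3′ end (5.87 and 8.46). Its start also had peaks in all 4 libraries, and the OPC-only region was 24 bp from such a region. Kcne4, a regulatory subunit of potassium channels, was one of the 6, with an OL-only region 76.5 bp upstream of its start (9.26 and 8.42) and an OPC-only region 304 bp inside its 3′ end (9.69 and 8.28).

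The same genes often held further switching regions away from the member. Only regions inside the gene and more than 1 kb from both of its ends were counted here. Of the 1128 genes with an OL-only end region, 40.1% had such an OL-only region and 27.0% such an OPC-only region. Of the 1440 genes with an OPC-only end region, 27.2% had a further OPC-only region but 38.3% an OL-only region. Over all protein-coding genes the shares were 32.0% for OL-only and 22.2% for OPC-only regions. Gene length was not matched, and the nearest genes of the members had median lengths of 23.1 kb (OL-only) and 21.1 kb (OPC-only) against 17.2 kb for all genes.

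Promoters under the 2 sets differed in base composition. Promoter windows of 300 bases, from 250 upstream to 50 downstream of a start, were available for 21238 distinct starts, and 54 were overlapped by an OL-only and 266 by an OPC-only region. The median ratio of observed to expected CG pairs was 0.317 in OL-only and 0.483 in OPC-only promoters, beside 0.801 in the 9947 promoters under an all-library region, 0.196 in the 8117 with no listed peak and 0.567 in all windows. A ratio above 0.6, a usual limit for CpG islands, was found in 13.0% of OL-only and 36.5% of OPC-only promoters, beside 80.4% of all-library promoters and 47.6% of all windows. Median G + C was 52.0% and 56.3%, beside 62.7% and 56.3%. By these medians both sets lay between the promoters open in all libraries and those without a peak (G + C 47.0%), and the OL-only set was nearer to the latter. The OPC-only median ratio was also nearer to that of promoters without a peak, while its median G + C was nearer to that of all-library promoters. Some of the windows also lay under an all-library region. Without those, 46 OL-only and 247 OPC-only windows remained, with median ratios of 0.243 and 0.452. A ratio above 0.6 was then found in 6.52% and 33.2%, beside 6.52% of the promoters with no listed peak.

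**Figure D5:**
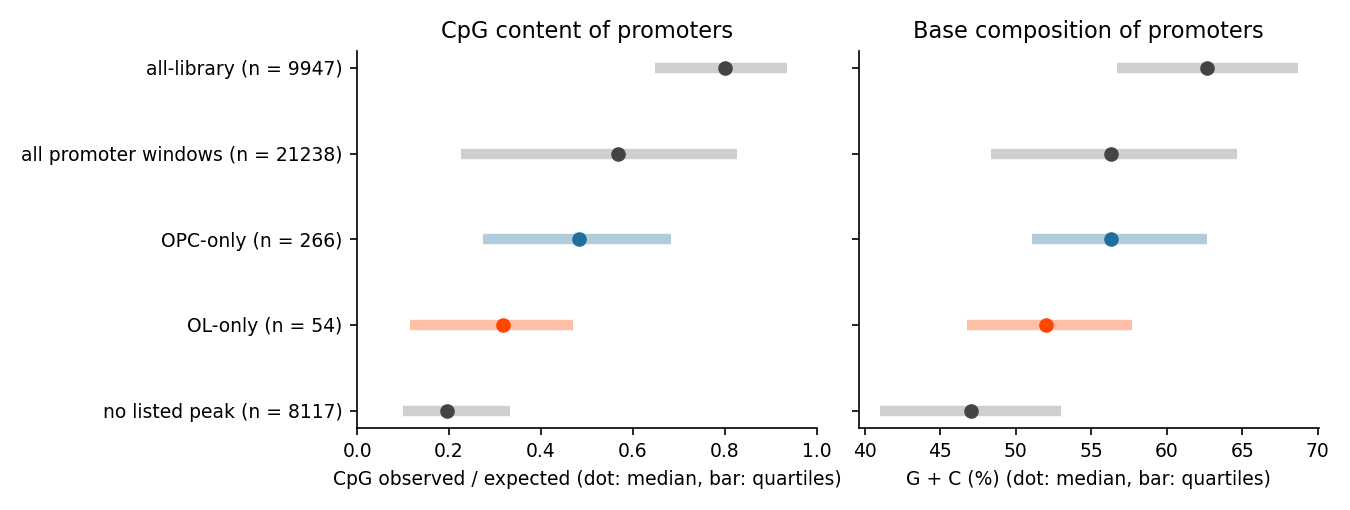
Median (dot) and quartiles (bar) of the ratio of observed to expected CG pairs (left) and of G + C in percent (right) in promoter windows of 300 bases, by the kind of region that overlaps them (number of windows in brackets). OL-only promoters have a median ratio of 0.317, OPC-only promoters 0.483 and all-library promoters 0.801.

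Of the short motifs, the SOX core AACAAT was present in 11 of 54 OL-only promoters (20.4%) and 16 of 266 OPC-only promoters (6.02%), beside 9.05% of all windows of the same length. The E-box CAGCTG was in 27.8% and 16.5%, beside 15.6%, and the TEAD motif GGAATG in 24.1% and 16.2%, beside 13.6%. The GC box GGGCGG was in 22.2% and 50.0%, beside 46.2% of all windows and 70.1% of all-library promoters. The ETS motif CCGGAAG was in 3.70% and 2.26%, beside 11.6% of all windows and 19.8% of all-library promoters. The RFX arm GTTGCC was in 14.8% and 19.2%, beside 12.7%, TTGGCA in 11.1% and 16.2%, beside 13.1%, and TGANTCA in 7.41% and 9.77%, beside 6.99%. TATAAA was in 9.26% and 9.77%, beside 12.6%, and CTTTGAT in 1.85% and 1.13%, beside 3.22%. A match shows only that the letters are in the window. Base composition, given above, was not matched between the sets, and AACAAT was also in 15.1% of the promoters with no listed peak.

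At the 1 kb limit, just inside were the OL-only regions of Usp39, Set and Mapkap1, at 991.5 to 993.0 bp with folds of 3.34 to 5.59 and 3.47 to 5.29, and just outside those of Tram1, Lpin1 and Gcnt7, all at 1001 bp with folds of 4.61 to 11.1 and 6.32 to 12.7. Just inside it were the OPC-only regions of Sostdc1, 4930583I09Rik and B2m, at 997.0 to 998.5 bp with folds of 4.41 to 9.0 and 3.56 to 6.28, and just outside those of Flna, Erbb2 and Tmem230, at 1002 to 1003.5 bp with folds of 2.55 to 11.0 and 2.41 to 9.63.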

How the data were processed

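The data are Omni-ATAC-seq libraries, 2 of OPCs and 2 of OLs, grouped by their labels. Per the submitters' processing notes, reads were trimmed with Trim Galore 0.3.1, aligned with Bowtie2 2.3.2 to mm10 and processed with Picard and MACS2. Not given in the sources used here are the MACS2 version and threshold, duplicate handling and any shift of reads for the transposase cut. The authors deposited 1 peak list per library, whose columns hold, from their peak caller, a whole-number score, a linear ratio (fold enrichment over background), −log10 q and −log10 p. Fold and −log10 q were used to rank, filter or describe peaks within a list. The folds of a region in the lists of the 2 lines were also set side by side, as a description. A library has no read counts here, so precision per peak cannot be given.

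From the lists, peaks were merged and set against 1 interval per protein-coding gene of the RefSeq annotation of GRCm38.p6 (Python 3.11.15, pandas 2.3.3, numpy 2.4.6, scipy 1.17.1). The interval's outermost start may not be the start in use. The strand came from the RefSeq promoter table, and a gene missing from it has an unknown strand. The merging and counting were checked on simulated intervals. Gene lists held 535 distinct symbols, of which 2 matched through a synonym and 1 did not match. Named genes are the 12 regions per set with the highest lower-of-both-lines percentile of fold, up to 6 genes per list and 4 per family by the same score, the markers, and regions next to the 1 kb limit. Members and lists were chosen with earlier results of these data known, and the RFX arm was added after the printed promoters had been seen. Genes further named as examples of a count (Rlbp1, Hapln2, Aspa, Fa2h, Gfap, Cacng4 and further potassium channels) were chosen after their values were seen. A few genes that the rule takes are not reported here. Alternatives changed the peak list, width, merging, window, position, gene models and libraries.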

Additional observations from a re-analysis of the deposited data

How the results depend on the processing

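No paired analysis was possible because the results come from no test into which a block could go. Within each line, whatever the other line showed, the start share was lower for the OL regions (41.8% against 71.7% in 129O1, 41.9% against 72.4% in EpiSC5). The regions of both lines include all members of the sets, so these shares are no separate check of the main ones. In all 14 alternatives, including that added after the data were seen, the start share was lower in the OL-only than in the OPC-only set. In 12 of them OPC-only regions were more numerous. OL-only and OPC-only counts were 614 and 822 with the best 50% of each list by q, 540 and 703 with a window of 500 bp, 2217 and 2293 with one of 2 kb, and 2320 OL-only regions with peaks of 200 bp around the summit. Leaving out 1 library at a time gave 1305 to 2242 OL-only and 1894 to 3807 OPC-only regions.

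The OL-only start share was 36%, 22.8%, 37.7% and 65.7% under the same settings in that order, and 37.5% to 39.2% without 1 library. The OPC-only start share was 75.2% with summit peaks and 72.0% to 74.6% without 1 library. The share with an all-library region within 1 kb was, for OL-only regions, 15.3% with the best 50%, 18.7% with 500 bp, 47.1% with summit peaks, 20.0% with lists of equal length, 20.3% with summit peaks outside all-library regions (an alternative chosen after seeing the data) and 30.9% to 31.8% without 1 library. For OPC-only regions it was 20.8%, 30.6% and 36.8% under the first 3 of these and, with the added alternative, 37.7%, and 46.9% to 57.9% without 1 library. The causes were not tested. Merging only overlapping peaks, requiring peaks to cover 25% of a region, using summits for position and leaving out predicted gene models moved none of these values beyond the counting interval, or 1.5 times for counts. The lists hold no depth, so a weak peak and a missing one cannot be told apart by reads.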

Other observations

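The counts per chromosome stand beside 1104 OL-only and 1419 OPC-only of 21975 gene-end regions in all. Whether the balance differed between chromosomes beyond counting error was not tested. OL-only regions outnumbered OPC-only regions on chromosome 1 (93 and 85 of 1341), chromosome 17 (70 and 61 of 1126) and chromosome 16 (36 and 35 of 641). The counts were equal on chromosome 14 (48 and 48 of 797). On the other chromosomes with members OPC-only regions were more numerous. Chromosome 18 had 21 OL-only and 46 OPC-only of 554 gene-end regions and chromosome X 20 and 42 of 653, while the gap in counts was larger on chromosome 2, with 81 and 125 of 1818. These chromosomes were picked out after the counts were seen.

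Several genes held more than 1 region of a set at their ends, 67 genes for OL-only and 84 for OPC-only regions, with at most 3 in a gene. The lines differed in how far the folds of a region diverged. Among OL-only regions, 21 had a fold over 2 times higher in EpiSC5 OLs and 0 in 129O1 OLs, and among OPC-only regions 22 had a fold over 2 times higher in EpiSC5 OPCs and 18 in 129O1 OPCs. Folds come from different lists here, so these counts describe the lists and not a change in accessibility.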
